A study of Mus musculus with 10 samples.

Results

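Transcript levels of 37 genes of the p53 network were measured in mouse cholangiocyte spheroids grown in a laminin-rich matrix or in collagen I. The genes were chosen by symbol from a list of p53 itself, its MDM regulators, its target genes, cell cycle inhibitors and the apoptosis machinery, and all 37 were present among the 18407 genes of the count table. Every library came from NMC, a line of normal mouse cholangiocytes, which form the lining of the bile ducts. The cells were cultured for 6 days as 3D double spheroids in laminin and collagen I mixed at 3:1 by volume (laminin-rich, 5 libraries) or in collagen I at 1 mg/mL (5 libraries). Both matrices therefore held collagen I, and the labels name no other treatment. The sources used here do not state how the line was established or whether its p53 protein is functional, and counts per gene do not show either. The series describes the libraries as biological replicates but does not say which cultures gave which library, so the p-values describe only the spread between these libraries.

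The p53 protein is a transcription factor that accumulates when DNA is damaged or cells are otherwise stressed, mainly because its breakdown through MDM2 slows. It then activates genes that stop the cell cycle, with Cdkn1a as the best known, and genes that start apoptosis, among them Bax, Bbc3 and Pmaip1, while it also activates Mdm2 and so limits itself. Since p53 is controlled largely at the level of protein, its target transcripts are commonly read as a measure of its activity. In bile duct epithelium, Cdkn1a and Cdkn2a are widely used as markers of cell senescence.

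The libraries held 4424725 to 7468219 counts in the laminin-rich matrix and 4913441 to 8129979 in collagen I. Of the 16 cholangiocyte markers examined, 13 averaged at least 1 CPM (counts per 1e6 of the TMM-scaled library size), led by Krt8, Krt19 and Krt18, while Ggt1, Prom1 and Cldn4 stayed under 1 CPM in every library. The summed cholangiocyte markers were at 4199 to 5823 CPM in the laminin-rich matrix and 4079 to 6094 CPM in collagen I. Hepatocyte markers, of which Cyp2e1, Cyp3a11 and Ass1 had no count in any library, summed to 136 to 193 CPM in the laminin-rich matrix and 89.4 to 138 CPM in collagen I. Fibroblast markers, with Lrat and Thy1 at 0, summed to 24.4 to 57.4 CPM in the laminin-rich matrix and 26.2 to 34.3 CPM in collagen I. Endothelial markers, with Cdh5, Kdr and Emcn at 0, summed to 1.26 to 2.72 CPM in the laminin-rich matrix and 1.34 to 2.32 CPM in collagen I. Leukocyte markers, with Adgre1 at 0, summed to 4.00 to 7.04 CPM in the laminin-rich matrix and 4.38 to 8.55 CPM in collagen I. The part of other cell types in the values below was not tested.

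None of the 37 genes differed between the matrices at an adjusted p under 0.05 in edgeR (quasi-likelihood, Benjamini-Hochberg over 10789 genes), where 0.148% of all genes were called. At an unadjusted p under 0.05 the count was 0 of 37, against 11.7% of all genes tested, and DESeq2 called 0 of 37, against 1.94% of all genes, with 0 of 37 at an unadjusted p under 0.05, against 13.1%. Group ranges overlapped for all 37, whereas they did not overlap for 3.23% of all genes tested. The log2 differences, laminin-rich minus collagen I, ran from -0.24 for Fas to 0.37 for Aen, with 21 above 0 and 16 below 0. Their median was 0.022, against 0.0094 over all genes tested, and the median of their sizes was 0.14 in both sets. Adjusted p ran from 0.430 for Aen to 0.985 for Bbc3. All 37 passed the filter on low counts, with the lowest single count at 33, for Fas. In bulk RNA, fewer cells expressing a gene and less RNA per cell cannot be told apart.

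**Figure D1:**
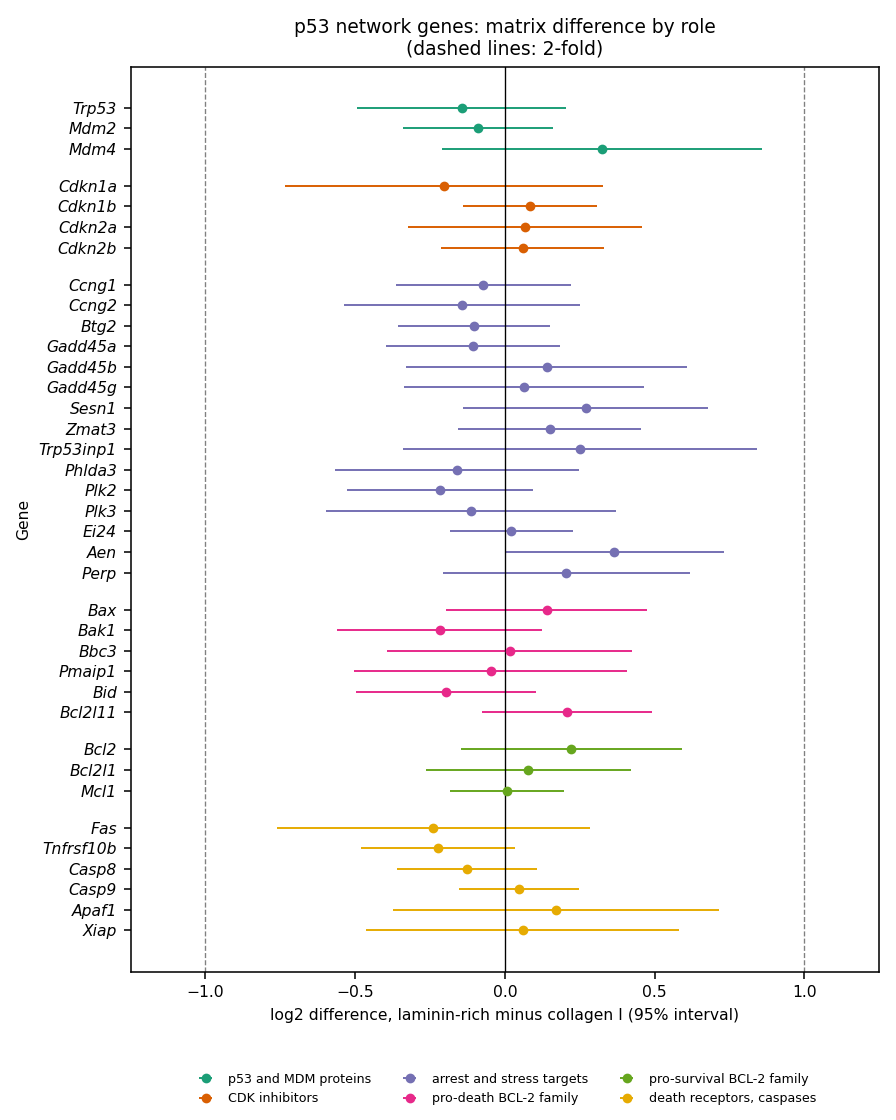
Log2 difference of each of the 37 genes, laminin-rich minus collagen I (x axis), with its 95% interval from the edgeR fit (bars, n = 5 libraries per matrix), grouped by role on the y axis. All 37 intervals cross 0 and lie inside the dashed lines at a 2-fold change, with Fas lowest at -0.24 and Aen highest at 0.37.

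The intervals come from the fit to all 10 libraries with matrix as its only term. The 95% interval of the fold change, taken gene by gene without adjustment, lay within a 2-fold change in either direction for 37 of 37 genes, against 91.7% of all genes tested. For 26 of the 37 it lay within a 1.5-fold change, against 63.0% of all genes. The interval reached highest for Mdm4, at 1.81-fold, and lowest for Fas, at 0.591-fold. It was narrowest around Mcl1 and Casp9, at 0.881 to 1.15 and 0.899 to 1.19. These intervals did not hold for every subset of libraries: without collagen I replicates 1 to 3, whose codes share the letter B, the log2 difference of Trp53inp1 was 1.05, past 2-fold and above the top of its interval at 0.84. In the same fit Apaf1, Xiap, Trp53 and Bak1 also lay outside their intervals.

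Sequence upstream of the start is shown for 4 p53 targets. Cdkn1a and Ccng1 are shown because their windows hold a pair of directly adjacent p53 half-sites. Mdm2 and Bax are shown as examples of an exact half-site without such a pair. Pairs of half-sites with bases between them were not searched for. The windows are RefSeq promoters of GRCm38.p6, with 250 bases before and 50 after each start, available for 32 of the 37 genes. They were searched for the 10-base p53 half-site consensus, which reads the same on both strands. Sequence outside the windows, such as introns further into a gene, was not searched. An exact half-site was present for 9 of the 32 genes (28.1%), against 9.55% of the 27025 genes with a window. An exact half-site directly next to another with at most 1 mismatch and the same central C and G was present for 2 of the 32 (6.25%), against 0.0814% of all genes. The list was built around p53, with its targets and regulators beside other cell cycle inhibitors and apoptosis genes. These shares therefore describe the list and are not a finding. In the lines that follow, capitals mark the half-sites, of which 1 in each pair has 1 mismatch to the consensus, and each sequence runs 5′ to 3′ on the strand of its gene.
Cdkn1a, chr17:29090898-29090977, plus strand, with 2 half-sites 51 to 32 bases before a RefSeq start: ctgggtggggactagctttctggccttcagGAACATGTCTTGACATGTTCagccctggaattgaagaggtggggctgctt
Ccng1, chr11:40755432-40755511, minus strand, with 2 half-sites 195 to 176 bases before the start: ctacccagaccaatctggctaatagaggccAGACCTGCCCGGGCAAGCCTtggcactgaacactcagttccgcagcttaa
Mdm2, chr10:117710905-117710974, minus strand, with 1 half-site 186 to 177 bases before the start: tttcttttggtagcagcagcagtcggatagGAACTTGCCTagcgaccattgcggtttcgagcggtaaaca
Bax, chr7:45467060-45467129, minus strand, with 1 half-site 201 to 192 bases before the start: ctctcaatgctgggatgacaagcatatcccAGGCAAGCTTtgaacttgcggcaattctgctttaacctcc

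The 9 genes with an exact half-site had log2 differences of -0.20 for Cdkn1a, -0.14 for Trp53, -0.11 for Gadd45a, -0.09 for Mdm2, -0.07 for Ccng1, 0.02 for Ei24, 0.14 for Bax, 0.27 for Sesn1 and 0.37 for Aen. They thus lay on both sides of 0, and none passed the test. The match describes these letters only and says nothing of whether p53 was bound.

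Trp53 encodes p53 and lies on chromosome 11 from 69580359 to 69591873 in GRCm38. It was at 216, 224, 216, 241 and 261 CPM in laminin-rich replicates 1 to 5, against 182, 212, 235, 348 and 303 CPM in collagen I replicates 1 to 5. The laminin-rich values all fell inside the collagen I range. The log2 difference was -0.14 (SE 0.16, adjusted p = 0.783, edgeR). Mdm2, the ubiquitin ligase that marks p53 for breakdown, was at 79.4, 85.4, 64.6, 79.6 and 71.9 CPM in the laminin-rich matrix, against 91.6, 91.2, 74.6, 69.0 and 78.8 CPM in collagen I. Its groups overlapped, with collagen I replicates 1 and 2 above every laminin-rich library, and its log2 difference was -0.09 (SE 0.12, adjusted p = 0.815, edgeR). Mdm4, a relative of MDM2 that blocks the activating region of p53, averaged 61.9 ± 19.1 CPM in the laminin-rich matrix and 49.5 ± 16.6 CPM in collagen I (SD, n = 5 each). Its difference of 0.32 had the largest standard error among p53 and its regulators, at 0.25.

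Among the inhibitors of cyclin-dependent kinases, Cdkn1a, which encodes p21, lies on chromosome 17 from 29090976 to 29100727. It was at 367, 276, 172, 138 and 319 CPM in laminin-rich replicates 1 to 5, against 267, 256, 230.0, 380.4 and 332 CPM in collagen I replicates 1 to 5. The laminin-rich libraries spread more widely, with replicates 3 and 4 below every collagen I library and the other replicates inside the collagen I range. Its log2 difference was -0.20 (SE 0.25, adjusted p = 0.797, edgeR). Cdkn2a, on chromosome 4 from 89274471 to 89294653, encodes the kinase inhibitor p16 and, in another reading frame, the protein ARF that binds MDM2, and counts per gene symbol do not separate them. It was at 272, 226, 207, 207 and 278 CPM in the laminin-rich matrix, against 166, 154, 272, 281 and 264 CPM in collagen I. Collagen I replicates 1 and 2 were the lowest of all libraries, and the other collagen I libraries stood at the level of the highest laminin-rich ones. The remaining inhibitors, Cdkn1b for p27 and Cdkn2b for p15, had log2 differences of 0.08 (SE 0.10) and 0.06 (SE 0.13).

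**Figure D2:**
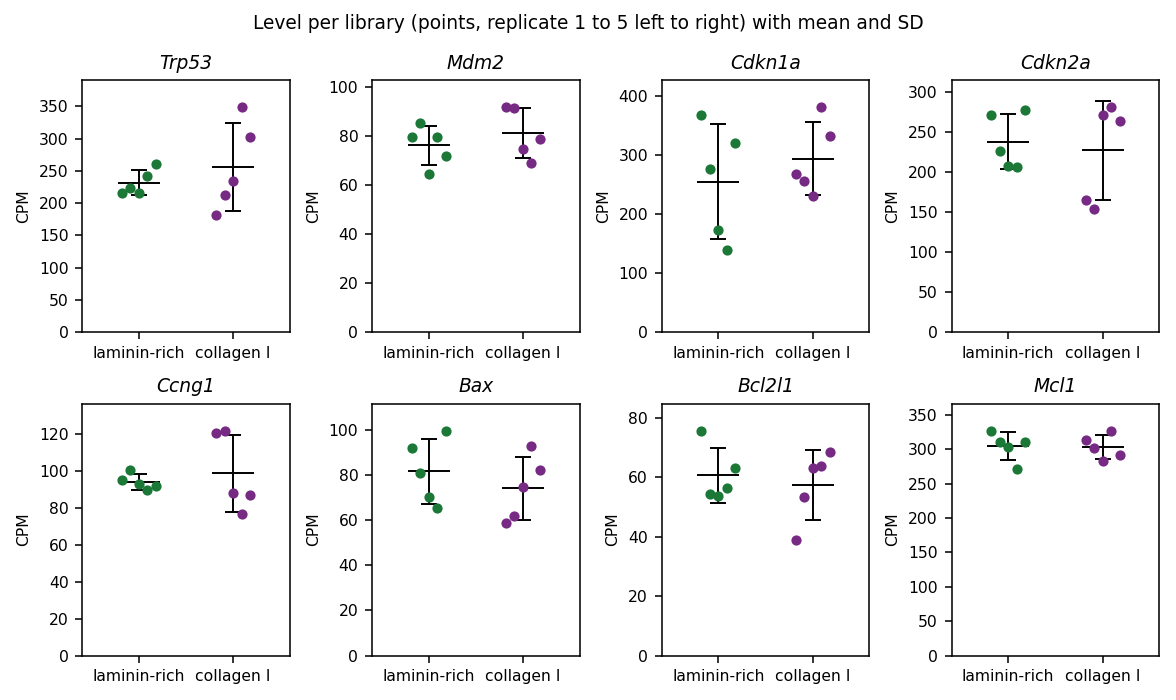
Level of 8 genes in CPM (y axes, starting at 0) in each laminin-rich and collagen I library (points, replicates 1 to 5 from left to right), with the mean and SD of 5 libraries. The groups overlap in every panel, and the laminin-rich libraries lie closer together than the collagen I libraries for Trp53 and Ccng1 and further apart for Cdkn1a.

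The 15 arrest and stress genes gave 8 differences above 0 and 7 below 0, with a median of 0.022. Ccng1, which encodes cyclin G1, a long known p53 target, was at 95.2, 100.4, 92.7, 89.6 and 91.7 CPM in the laminin-rich matrix, against 120.4, 122, 87.8, 76.7 and 87.0 CPM in collagen I. The laminin-rich values all lay inside the collagen I range, and the log2 difference was -0.07 (SE 0.14, adjusted p = 0.879, edgeR). Its relative Ccng2 gave -0.14 (SE 0.18). Of the stress sensors of the GADD45 family, Gadd45a gave -0.11, Gadd45b 0.14 and Gadd45g 0.06. The antiproliferative gene Btg2 gave -0.10, and Plk2 and Plk3, kinases of the polo-like family, gave -0.22 and -0.11. Sesn1, a sestrin that restrains mTORC1, gave 0.27, Zmat3, an RNA-binding protein, 0.15, and Trp53inp1, a nuclear cofactor of p53, 0.25. Phlda3, an inhibitor of AKT, gave -0.16, Perp, a membrane protein of desmosomes, 0.21, and Ei24, a membrane protein of the endoplasmic reticulum, 0.02.

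Aen, a nuclease induced during apoptosis, came nearest to the threshold and is given for that reason, chosen after its values were seen. It was at 14.1, 19.3, 22.9, 14.4 and 15.2 CPM in the laminin-rich matrix, against 10.7, 12.5, 14.6, 15.1 and 13.8 CPM in collagen I. Laminin-rich replicates 2, 3 and 5 stood above every collagen I library, while replicates 1 and 4 lay inside the collagen I range. The log2 difference was 0.37 (SE 0.17), with an unadjusted p of 0.0503 and an adjusted p of 0.430 (edgeR).

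The BCL-2 family decides whether the outer mitochondrial membrane is opened, the step that releases cytochrome c. Bax, which forms the pores, was at 92.1, 80.8, 70.4, 65.5 and 99.8 CPM in the laminin-rich matrix, against 59.0, 61.9, 74.8, 92.8 and 82.1 CPM in collagen I. The groups overlapped through most of their range, and the log2 difference was 0.14 (SE 0.15, adjusted p = 0.781, edgeR). Bak1, the other pore former, averaged 120 ± 14.9 CPM in the laminin-rich matrix and 140 ± 33.3 CPM in collagen I (SD, n = 5 each), a log2 difference of -0.22 (SE 0.16). The BH3-only genes, whose products activate the pore formers or disable their inhibitors, gave 0.02 for Bbc3, -0.05 for Pmaip1, -0.20 for Bid and 0.21 for Bcl2l11. Across the 6 genes that promote death, 3 differences were above 0 and 3 below.

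The pro-survival members hold the pore formers in check, and all 3 were expressed. Mcl1 was at 327, 311, 304, 272 and 311 CPM in the laminin-rich matrix, against 313, 301, 282, 327 and 291 CPM in collagen I, a difference of 0.0078 (SE 0.09). It was among the steadiest of the 37 genes, with a pooled SD within a matrix of 0.092 log2 units. Bcl2l1, which encodes BCL-XL, was at 75.7, 54.3, 53.9, 56.5 and 63.1 CPM in the laminin-rich matrix, against 39.0, 53.4, 63.1, 63.7 and 68.5 CPM in collagen I. Laminin-rich replicate 1 was the highest and collagen I replicate 1 the lowest library for it, and the log2 difference was 0.08 (SE 0.16, adjusted p = 0.887, edgeR). Bcl2 averaged 15.3 ± 3.31 CPM in the laminin-rich matrix and 13.1 ± 1.71 CPM in collagen I (SD, n = 5 each).

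The receptors and caspases carry the death signal from the cell surface or from the mitochondrion. The death receptors Fas and Tnfrsf10b gave -0.24 (SE 0.24) and -0.22 (SE 0.12). Tnfrsf10b, the mouse receptor for TRAIL, had the second smallest unadjusted p of the 37, at 0.0836, with 22.4, 25.6, 24.5, 23.4 and 20.7 CPM in the laminin-rich matrix, against 30.4, 28.7, 29.4, 24.2 and 23.3 CPM in collagen I. Collagen I replicates 1 to 3 stood above every laminin-rich library for it, and replicates 4 and 5 lay inside the laminin-rich range. Casp8, the caspase of the receptor pathway, gave -0.13 (SE 0.11), and Casp9, that of the mitochondrial pathway, 0.05 (SE 0.09). Apaf1, the scaffold on which caspase-9 is activated, gave 0.17 (SE 0.25), and Xiap, an inhibitor of caspases, 0.06 (SE 0.24).

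Levels were compared between genes per length, as CPM per kb of the longest annotated transcript. Counts per gene do not show which transcript was expressed, so the order below depends on that choice of length. The length trend of the libraries, described below, was not removed from these values. Cdkn2a was the highest of the 37, at 266 ± 38.7 CPM per kb in the laminin-rich matrix and 254 ± 69.1 in collagen I (SD, n = 5 each). Cdkn1a came next, at 122 ± 46.6 CPM per kb in the laminin-rich matrix and 141 ± 29.7 in collagen I. It was followed by Mcl1, at 89.2 ± 5.93 in the laminin-rich matrix and 88.7 ± 5.20 in collagen I. Trp53 was at 70.7 ± 5.95 CPM per kb in the laminin-rich matrix and 78.2 ± 20.8 in collagen I. Bax, its neighbour in the order, was at 74.3 ± 13.1 in the laminin-rich matrix and 67.4 ± 12.8 in collagen I, and the spreads of these neighbours overlapped. Among the pro-survival genes the order was Mcl1, then Bcl2l1, at 23.6 ± 3.57 CPM per kb in the laminin-rich matrix and 22.4 ± 4.57 in collagen I, then Bcl2. Bcl2 was the lowest of the 37, at 2.13 ± 0.46 in the laminin-rich matrix and 1.82 ± 0.24 in collagen I. Mdm2 lay above Mdm4 in both matrices, with 24.2 ± 2.56 CPM per kb against 8.72 ± 2.68 in the laminin-rich matrix and 25.8 ± 3.21 against 6.96 ± 2.33 in collagen I.

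Ratios of 2 genes within a library do not depend on how libraries are scaled, and 6 pairs with opposed or parallel roles were tested. A trend on transcript length that differs between libraries, described below, does not cancel where the 2 genes differ in length. Mdm2 (3145 nt) and Mdm4 (7105 nt) are such a pair, and the part of length in the ratios was not tested. For Bax to Bcl2l1 the log2 ratio of counts was 0.42 ± 0.19 in the laminin-rich matrix and 0.37 ± 0.18 in collagen I (SD, n = 5 each, two-sided exact permutation p = 0.635). The ratio of Bax to Bcl2 was 2.42 ± 0.53 in the laminin-rich matrix and 2.48 ± 0.45 in collagen I (exact permutation p = 0.810). The difference was largest for Mdm2 to Mdm4, with 0.35 ± 0.51 in the laminin-rich matrix and 0.77 ± 0.33 in collagen I (exact permutation p = 0.183). Within collagen I that ratio was 1.17 and 0.99 in replicates 4 and 5, against 0.32, 0.67 and 0.68 in replicates 1 to 3. For Cdkn1a to Cdkn1b the values were -0.21 ± 0.47 in the laminin-rich matrix and 0.15 ± 0.38 in collagen I (exact permutation p = 0.254). Bbc3 to Mcl1 was at -4.32 ± 0.26 in the laminin-rich matrix and -4.32 ± 0.30 in collagen I (exact permutation p = 0.992). Bcl2l11 to Bcl2l1 was at 0.27 ± 0.32 in the laminin-rich matrix and 0.14 ± 0.56 in collagen I (exact permutation p = 0.683). Its collagen I values were -0.36 and -0.36 in replicates 4 and 5, against 0.95, 0.39 and 0.08 in replicates 1 to 3. Adjusted over the 6 ratios, p ran from 0.762 to 0.992. The smallest p this design allows is 0.00794.

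**Figure D3:**
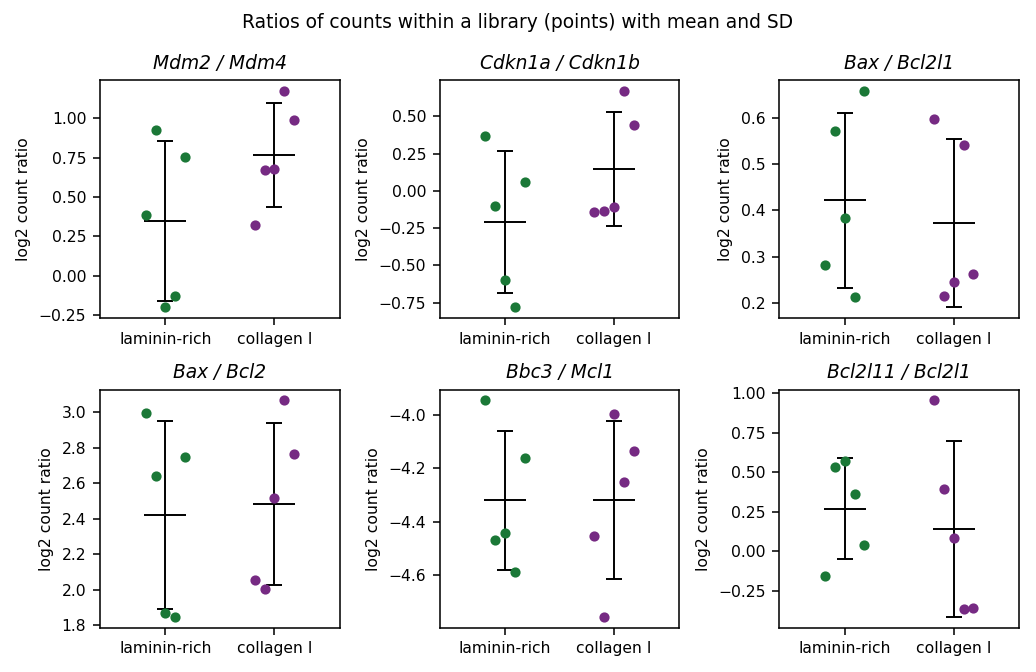
Log2 ratio of the counts of 2 genes within each laminin-rich and collagen I library (y axes, points in replicate order), with the mean and SD of 5 libraries. The groups overlap in all 6 panels, most closely for Bbc3 to Mcl1, where both means are -4.32.

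Libraries of the same matrix differed among themselves. The pooled SD of log2 CPM within a matrix had a median of 0.27 over the 37 genes, above the median size of the difference between matrices, 0.14. Over all genes tested the median SD was 0.26. The SD of the 37 ran from 0.084 for Casp9 to 0.53 for Trp53inp1. It was larger in collagen I than in the laminin-rich matrix for 23 of the 37 genes. The ratio of the highest to the lowest library was 3.33 for Trp53inp1, 2.85 for Mdm4, 2.75 for Cdkn1a and 2.73 for Apaf1. It was smallest for Mcl1. Among the laminin-rich libraries, replicate 4 held the lowest value for 16 of the 37 genes and the highest for 2, while replicate 1 held the highest for 12. Among the collagen I libraries, replicate 4 held the highest value for 16 genes and the lowest for 13.

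Within collagen I the library codes carry the letter B for replicates 1 to 3 and D for replicates 4 and 5, and the labels do not say what the letters stand for. Trp53inp1 was at 24.8 and 31.4 CPM in the D libraries and at 82.6, 66.6 and 43.6 CPM in the B libraries. Apaf1 was at 21.0 and 23.1 CPM in D and at 57.3, 51.4 and 34.2 CPM in B, and Xiap at 76.1 and 89.4 CPM in D and at 196, 168 and 114 CPM in B. In these long transcripts every D library stood below every B library. Bak1, with a shorter transcript, was at 181 and 167 CPM in D and at 102, 117 and 131 CPM in B, so here every D library stood above every B library. Over the 37 genes the log2 difference of D minus B ran from -1.14 for Trp53inp1 to 0.64 for Trp53, and 12 genes were at 0.5 or more in either direction. That difference followed transcript length across the genes, with a Pearson r of -0.74 and a Spearman rho of -0.74 (n = 37 genes from the same 5 libraries, a description).

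**Figure D4:**
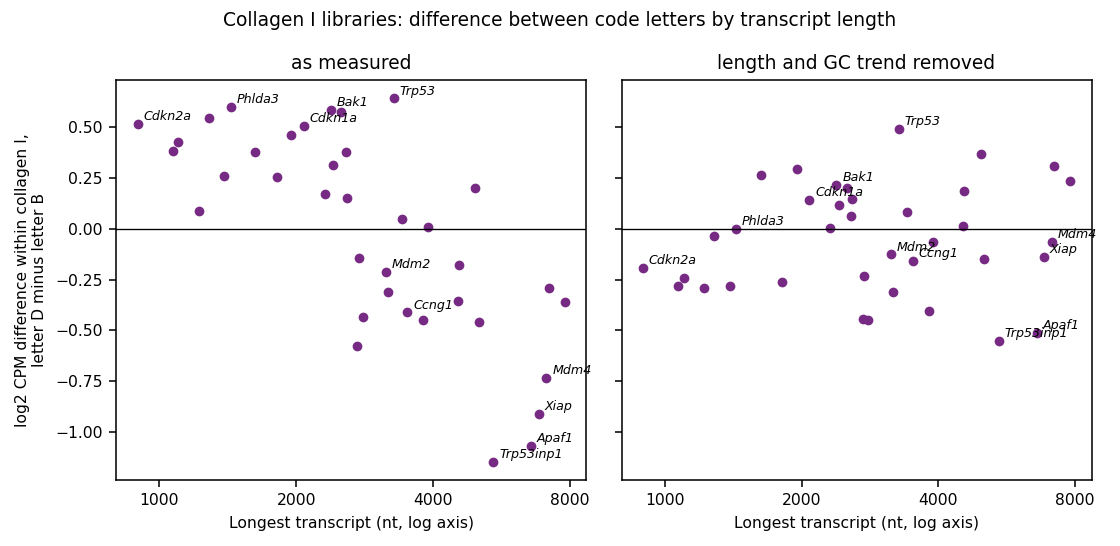
Log2 CPM difference between the collagen I libraries of letter D (n = 2) and letter B (n = 3) for the 37 genes (points, y axis) by the length of the longest transcript (x axis, log scale), as measured and with a fitted trend on length and GC content removed. As measured, long transcripts such as Trp53inp1 (-1.14) lie low and Trp53 (0.64) highest, and with the trend removed r is 0.10. The lower r largely follows from taking away a trend fitted on length.

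After removal of a trend on transcript length and GC content, fitted per library over all genes, the r was 0.10 and 2 genes were at 0.5 or more. The median SD within a matrix was then 0.17, against 0.19 over all genes, and the SD was smaller than before removal for 30 of the 37. A lower r and a lower SD largely follow from taking away a trend fitted on length, so neither is a finding about these genes. Trp53 then had a D minus B difference of 0.49 and Trp53inp1 one of -0.55, whereas Xiap was at -0.14 and Mdm4 at -0.07. A slope per doubling of transcript length was fitted over all genes tested, on log2 CPM minus the mean of each gene over the 10 libraries. It was -0.12 to 0.16 log2 units in the laminin-rich libraries. In collagen I it was -0.37 and -0.19 in the D libraries against 0.18, 0.15 and -0.06 in the B libraries. The mean slope was 0.058 ± 0.12 in the laminin-rich matrix and -0.058 ± 0.23 in collagen I (SD, n = 5 each, exact permutation p = 0.373, adjusted 0.643 over 2 library measures). The 2 means mirror each other by construction, as deviations are taken from the mean of all 10 libraries. No letter is found in both matrices, so letter and matrix cannot be told apart.

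**Figure D5:**
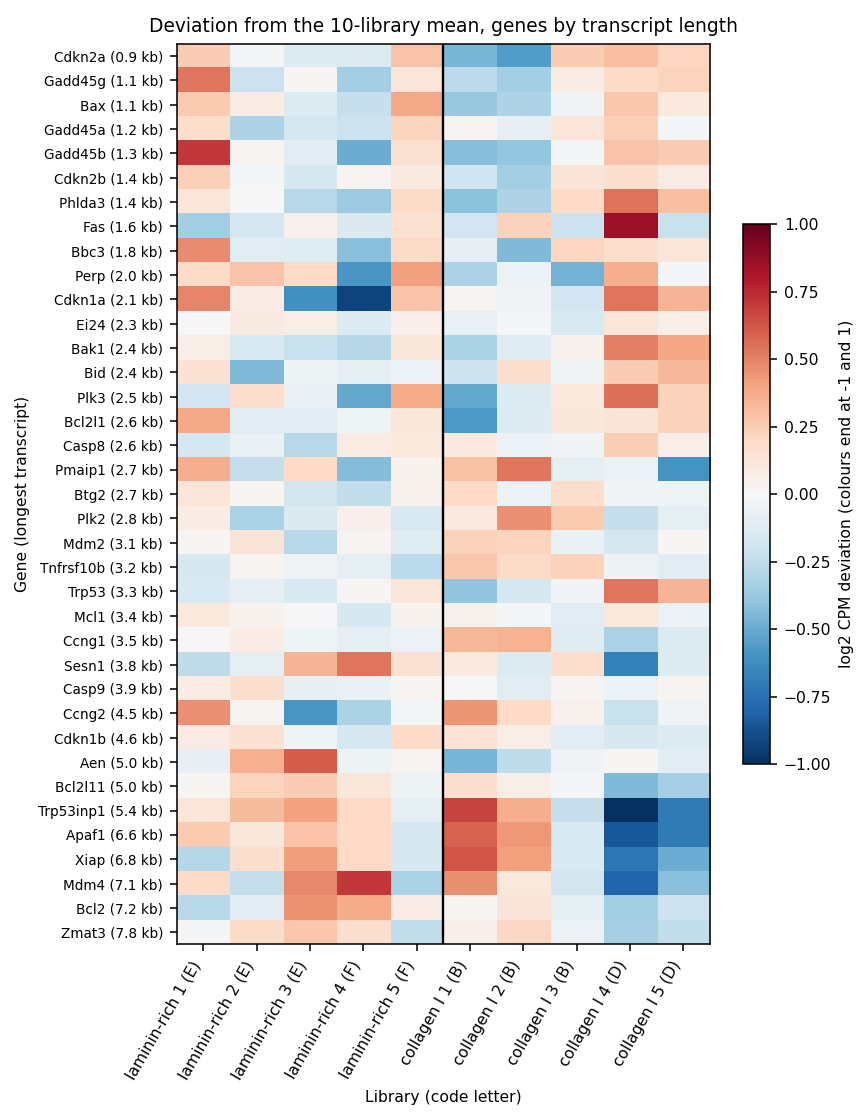
Log2 CPM of each gene in each library minus its mean over the 10 libraries (colour, red above and blue below), with genes ordered from the shortest to the longest transcript down the y axis and libraries with their code letter on the x axis. For Trp53inp1, Apaf1, Xiap and Mdm4, near the bottom, collagen I replicates 4 and 5 (D) lie below replicates 1 to 3 (B). Laminin-rich replicate 4 is the lowest library for Cdkn1a.

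Fits without a letter gave other counts. Without the 3 B libraries, edgeR called 6 of the 37 genes, beside 18.9% of all 11018 genes tested, a share near that of all genes, and 9 were at an unadjusted p under 0.05, beside 37.1%. Higher in the laminin-rich matrix were Trp53inp1 (log2 difference 1.05), Apaf1 (0.91), Xiap (0.67) and Bcl2l11 (0.48), and lower were Trp53 (-0.52) and Bak1 (-0.56). The adjusted p of these 6 lay between 0.0204 and 0.0368 in edgeR. When the same fit also carried an offset for length and GC content, 2 of the 37 were called, beside 6.43% of all genes, and 7 were at an unadjusted p under 0.05, beside 26.5%. The 2 called genes were Trp53 at -0.43 (adjusted p = 0.0354 in edgeR) and Trp53inp1 at 0.65 (adjusted p = 0.0240 in edgeR). Without the 2 D libraries, 0 of the 37 were called, beside 0.0456% of all genes, with 3 at an unadjusted p under 0.05, beside 11.6% (edgeR). In that fit Trp53 and Trp53inp1 had the opposite sign, at 0.14 and -0.11. The calls made without the B libraries thus rest on collagen I replicates 4 and 5. With all 10 libraries and the offset alone, edgeR called 0 of the 37, beside 0.964% of all genes. There Bax (0.20) and Bak1 (-0.21) were at an unadjusted p under 0.05, 2 of 37, beside 15.2%. With the replicate number as a block in addition, 0 were called, beside 0.111%, and 3 were at an unadjusted p under 0.05, beside 14.2%.

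Other genes of the pathway were read from lists beside the 37, and 0 of them passed over all genes tested, where 0.148% of genes were called. Of 16 tested regulators of p53, 11 differences were above 0 and 5 below, with a median of 0.075, and 1 had an unadjusted p under 0.05, against 11.7% of all genes. Hipk2, a kinase that phosphorylates p53, was at 42.8, 79.0, 110.3, 70.0 and 28.6 CPM in the laminin-rich matrix, against 48.6, 48.9, 20.9, 12.0 and 15.7 CPM in collagen I, and the groups overlapped. Its log2 difference of 1.18 (SE 0.42) did not pass (adjusted p = 0.312, edgeR). Ppm1d, a phosphatase that acts against p53, gave 0.19, and the checkpoint kinase Chek2 0.15. Of 27 further p53 targets, 18 were above 0 and 9 below, with a median of 0.11, and 1 had an unadjusted p under 0.05. Ddit4l, an inhibitor of mTORC1, gave 0.69 (SE 0.27), with laminin-rich replicate 4 highest at 23.5 CPM. The remaining laminin-rich libraries lay between 7.99 and 12.0 CPM and the collagen I libraries between 6.92 and 8.75 CPM. Psrc1, a protein of the mitotic spindle, and Rps27l, a ribosomal protein, gave -0.32 and -0.28.

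Of 26 further apoptosis genes, 10 were above 0 and 16 below, with a median of -0.04, and 5 had an unadjusted p under 0.05, against 11.7% of all genes. Casp6, an executioner caspase, was at 34.7, 26.5, 23.5, 31.3 and 27.2 CPM in the laminin-rich matrix, against 36.0, 35.9, 35.3, 55.0 and 45.1 CPM in collagen I. Every collagen I library stood above every laminin-rich one, the only case without overlap among the 26, beside 3.23% of all genes tested. Among the other listed genes, ranges did not overlap for Mcm3, Slc10a2 and Dcn. For Casp6 the log2 difference of -0.53 (SE 0.16) had an unadjusted p of 0.00512 and an adjusted p of 0.226 (edgeR). Cycs, which encodes cytochrome c, gave 0.39 (SE 0.15), and Bmf, a BH3-only gene linked to detachment from the matrix, 0.27 (SE 0.11). Of 28 genes of the G1 cell cycle machinery, 17 were above 0 and 11 below, with a median of 0.03, and 3 had an unadjusted p under 0.05. Cdk6 gave -0.39 (SE 0.14), E2f5 -0.38 (SE 0.15) and E2f2 0.31 (SE 0.14). Of 20 proliferation genes, 10 were above 0 and 10 below, with a median of -0.02, and 2 had an unadjusted p under 0.05. Ccnb2, a mitotic cyclin, averaged 166 ± 20.6 CPM in the laminin-rich matrix and 210 ± 17.5 CPM in collagen I (SD, n = 5 each), a log2 difference of -0.34 (SE 0.11, adjusted p = 0.254, edgeR). Cdk1 gave -0.24 (SE 0.11) and the replication factor Mcm3 0.19 (SE 0.09).

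None of the marker genes of cell types that were tested passed either. At an unadjusted p under 0.05 (edgeR) were 3 of 12 cholangiocyte and 3 of 3 hepatocyte markers, all higher in the laminin-rich matrix. Of 4 fibroblast markers 2 were, 1 higher and 1 lower, and of 1 leukocyte marker 0, against 11.7% of all genes tested. Of 12 tested cholangiocyte markers, 7 differences were above 0 and 5 below, from -1.002 to 1.208 with a median of 0.10, and those with the smallest p were Slc10a2 at 1.21, Aqp1 at 0.93 and Cdh1 at 0.42. The hepatocyte markers tested were Alb at 0.91, Ttr at 0.95 and Hnf4a at 0.45, and the fibroblast markers with the smallest p were Dcn at -1.197, Pdgfra at 1.198 and Des at -0.74. Cd68, the only leukocyte marker tested, gave -0.36, and no endothelial marker passed the filter. The lowest adjusted p among them was 0.0697, for Dcn.

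Exons of Cdkn1a, Gadd45a, Plk3, Ei24, Bak1, Bid, Bcl2 and Casp9 overlap those of a gene on the opposite strand in the annotation, and exons of Bax overlap those of Gm45808 on the same strand. How reads in these stretches were assigned is not stated, which leaves these genes' values uncertain.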

How the data were processed

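Poly(A) RNA from 10 libraries was sequenced from 30 ng of total RNA with a stranded kit, per the labels' protocols. The authors deposited a table of raw counts, as whole numbers for each gene symbol. The submitters' processing notes name the build GRCm38 (mm10) and the tool DESeq2. The sources used here give no aligner, counter, strand setting or annotation.

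The default filterByExpr filter kept 10789 of 18407 genes, which were scaled by TMM and compared with edgeR 4.0.16 (quasi-likelihood F test, group only, two-sided, R 4.3.3) over all genes, with Benjamini-Hochberg adjustment and a threshold of 0.05. SEs were obtained from the log2 fold changes and their F statistics. CPM used TMM-scaled library sizes, and log2 CPM a prior count of 2. Ratios used counts plus 0.5 and two-sided exact permutation over 252 assignments (scipy 1.17.1). Transcript length, GC content and positions came from GENCODE M21 on GRCm38, which matched 10781 of the 10789 genes, and promoters from RefSeq. The length and GC trend used splines of 5 degrees of freedom each, fitted per library without regard to matrix.

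The genes and lists were chosen with earlier results of these data known. By the naming rule, Trp53, Mdm2, Cdkn1a, Cdkn2a, Ccng1, Bax, Bcl2l1 and Mcl1 are given per library whatever their values, as is any of the 37 at an unadjusted p under 0.05, and each other list gives its called genes or else the 3 with the smallest p. Other genes given per library were chosen after their values were seen. Alternatives were DESeq2 1.42.0, its size factors, library size only, 2 other filters, the replicate block, the length and GC offset, both together, and each library left out. Leaving out the libraries of letter B or D was added after seeing the data. The fits across genes were tested on simulated data. The simulated counts held no difference between letters and no length trend, so they cannot show how the fits behave under either. Replicates were used as separate samples, and intervals cover the spread between libraries.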

Additional observations from a re-analysis of the deposited data

Results flagged for a closer look

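Among the 37 genes, the 6 ratios, the total counts and the length slopes, 90 groups of 5 libraries were examined for a lone outlying library, and chance alone would mark about 5% of groups, or 4.5. A single value stood apart in this way. Perp, a membrane protein of desmosomes and a p53 target, was at 6.09 log2 CPM in laminin-rich replicate 4, against 6.85 in the next lowest laminin-rich library.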

How the results depend on the processing

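Across all genes, 16 were called as reported, against 209 with DESeq2, 29 with no filter, 104 with the length and GC offset, 2083 without the libraries of letter B, 708 without letter B and with the offset, and 5 without letter D. Leaving out 1 library at a time gave 0 to 64, with 0 without laminin-rich replicate 2, collagen I replicate 3 or collagen I replicate 5, 64 without laminin-rich replicate 1 and 36 without laminin-rich replicate 4. None of the 37 genes was called with any single library left out, and 0 to 1 were at an unadjusted p under 0.05. Of the 37, 6 were called without letter B, beside 18.9% of all genes. Without letter B and with the offset 2 were called, beside 6.43%. At an unadjusted p under 0.05 there were 2 with the offset, beside 15.2% of all genes, and 3 with the offset and the replicate block, beside 14.2%. Such genes numbered 9 without letter B, beside 37.1%, and 3 without letter D, beside 11.6%. They numbered 7 without letter B and with the offset, beside 26.5%. The median over the 37, 0.022, lay between -0.065 and 0.039 with 1 library left out. With the replicate number as a block, 0 genes and 0 of the 37 were called, and the ratios had p of 0.375 to 1 (smallest possible 0.0625). Whether libraries of the same number share a culture is not stated. Their deviations from the matrix means had correlations of -0.31, 0.26, -0.11, -0.33 and 0.48. No laminin-rich library was closest to the collagen I library of its own number. These correlations cannot decide the question, because the deviations also carry the length trend of each library.

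On the log2 scale, 7 of the 37 genes kept the sign of their difference under every alternative run (Mdm4, Sesn1, Aen, Bid, Bcl2l11, Tnfrsf10b and Casp8) and 30 did not. With DESeq2, the sign turned for Mcl1 -0.00306. With DESeq2 size factors, the sign turned for Mcl1 -0.00342. With library size only, the sign turned for Bbc3 -0.00653 and Mcl1 -0.00867. With no filter, the sign turned for Ei24 -0.00191, Bbc3 -0.00761 and Mcl1 -0.016. With a filter of 1 CPM, the sign turned for Bbc3 -0.00351 and Mcl1 -0.012. With the length and GC offset, the sign turned for Gadd45a 0.025, Zmat3 -0.051, Pmaip1 0.043 and Casp9 -0.00644. With the replicate block and the offset together, the sign turned for Gadd45a 0.024, Zmat3 -0.050, Pmaip1 0.046 and Casp9 -0.00894. Without letter B, the sign turned for Mdm2 0.016, Cdkn2a -0.22, Cdkn2b -0.11, Ccng1 0.17, Ccng2 0.058, Gadd45b -0.19, Gadd45g -0.18, Plk2 0.039, Ei24 -0.11, Perp -0.082, Bax -0.13, Bbc3 -0.14, Pmaip1 0.31, Bcl2l1 -0.15 and Mcl1 -0.047. Without letter D, the sign turned for Trp53 0.14, Cdkn1a 0.020, Trp53inp1 -0.11, Phlda3 0.093, Plk3 0.13, Bak1 0.038, Apaf1 -0.17, Xiap -0.25, Bax to Bcl2 0.23, Bbc3 to Mcl1 0.082 and Bcl2l11 to Bcl2l1 -0.21. Without letter B and with the offset, the sign turned for Mdm2 0.0082, Cdkn1b -0.055, Ccng1 0.082, Btg2 0.067, Gadd45a 0.20, Zmat3 -0.19, Plk2 0.099, Pmaip1 0.33, Bcl2 -0.14 and Mcl1 -0.050. With 1 library left out, the ranges that crossed 0 were Cdkn2a -0.069 to 0.15, Cdkn2b -0.033 to 0.11, Gadd45g -0.094 to 0.13, Ei24 -0.017 to 0.056, Bbc3 -0.13 to 0.095, Bcl2l1 -0.056 to 0.15, Mcl1 -0.019 to 0.036, Pmaip1 -0.18 to 0.075, Plk3 -0.26 to 0.022, Fas -0.34 to 0.0037, Xiap -0.079 to 0.25, Gadd45b -0.065 to 0.24, Casp9 -0.010 to 0.058, Bbc3 to Mcl1 -0.11 to 0.078, Bax to Bcl2 -0.21 to 0.084 and Bax to Bcl2l1 -0.00913 to 0.11. The cause of these changes was not tested.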
